A study of Mus musculus with 3 samples.

Results

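The 9 adhesion genes of the IgLON and netrin-G groups were followed through the mouse lumbar spinal cord: the 5 IgLON genes Opcml, Lsamp, Ntm, Negr1 and Iglon5, the 2 netrin-G genes Ntng1 and Ntng2, and Lrrc4c and Lrrc4, which encode the netrin-G ligands NGL-1 and NGL-2. They are 9 of the 31040 genes in the table, and the set was chosen by measured values, because Opcml and Ntng1 were lower in SOD1G93A mice in earlier results on these nuclei. The difference between genotypes is therefore given below for all 9 genes as a description, with no p value for a single gene and with threshold calls that describe the fit and support nothing, whereas sex and the interaction of sex and genotype, which played no part in the choice, were tested. Nuclei came from 6 transgenic mice of the strain B6.Cg-Tg(SOD1*G93A)1Gur/J and 6 wild-type (WT) C57BL/6J littermates, all aged 90 days, with 3 females and 3 males per genotype. The transgene is a high-copy mutant human SOD1 of familial amyotrophic lateral sclerosis, driven by the human SOD1 promoter and not restricted to a cell type, and the WT mice carry none. Each of the 3 pools, A, B and C, held 1 mouse of every sex and genotype, marked by nuclear hashtags, so that a mouse is named here by genotype, sex and pool. In all, 14662 nuclei with 206486779 unique molecular identifiers (UMIs, each standing for 1 captured RNA molecule) were deposited, and 15 barcodes occurred in more than 1 pool.

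IgLON proteins are small immunoglobulin-domain molecules held on the outer face of the membrane by a lipid (GPI) anchor, where they bind each other in homophilic and heterophilic pairs and shape neurite growth and synapse formation. Netrin-Gs, also GPI-anchored, are related to netrins but do not signal through the classical netrin receptors. They sit on axons and bind leucine-rich repeat proteins on the facing dendrite, netrin-G1 (Ntng1) pairing with NGL-1 (Lrrc4c) and netrin-G2 (Ntng2) with NGL-2 (Lrrc4).

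The proteins encoded by the longest complete coding sequences fell into these 3 families by identity. Opcml and Ntm shared 71.8% of aligned residues, the other IgLON pairs 42.6% to 55.7%, Ntng1 and Ntng2 59.4%, and Lrrc4c and Lrrc4 57.96%. Most of the genes are very long. On GRCm38 Lsamp spans 2197 kb (chr16:39984361-42181679), Lrrc4c 1313.5 kb (chr2:96318169-97631666), Opcml 1135 kb (chr9:27790775-28925410), Ntm 968 kb (chr9:28994750-29963141), Negr1 755 kb (chr3:156561794-157316445) and Ntng1 364 kb (chr3:109780040-110144011). Lrrc4 spans 170 kb (chr6:28661831-28831747), Ntng2 58.5 kb (chr2:29194541-29253005) and Iglon5 17.2 kb (chr7:43472904-43490075). Opcml and Ntm are neighbours that point towards each other. Lrrc4 lies on the strand opposite to Snd1 and within its span, and 5 further members overlap a less well-known gene on the other strand, so their UMIs can be told apart only if counting used strand.

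Because introns were counted, UMIs of the long genes could come from any part of the transcribed span. Their positions were not examined, so that dividing by span is an assumption. Levels are compared between genes only as CPM, the UMIs of a gene scaled to a fixed library total, per kb of span. Promoter sequences from RefSeq (GRCm38.p6) were available for all 9 genes. Of the 11 annotated starts, 4 held the GC box GGGCGG on either strand within the 250 bases before the start, against 32.7% of 32851 promoters, and 0 held TATAAA on either strand, against 12.4%. A match is a description of letters and not evidence of a bound factor. Shown here are the windows directly upstream of 2 genes with lower levels in SOD1G93A mice, Lrrc4c (chr2:96317919-96318168, plus strand) and Lsamp (chr16:39984114-39984360, plus strand), 5′ to 3′ with CG dinucleotides in capitals. The windows of Opcml and Ntng1 overlap annotated first exons and are not shown.
Lrrc4c: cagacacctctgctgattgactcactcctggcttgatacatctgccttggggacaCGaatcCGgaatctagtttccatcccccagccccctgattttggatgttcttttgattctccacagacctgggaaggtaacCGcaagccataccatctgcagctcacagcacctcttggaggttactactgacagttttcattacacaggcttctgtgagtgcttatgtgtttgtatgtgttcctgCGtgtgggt
Lsamp: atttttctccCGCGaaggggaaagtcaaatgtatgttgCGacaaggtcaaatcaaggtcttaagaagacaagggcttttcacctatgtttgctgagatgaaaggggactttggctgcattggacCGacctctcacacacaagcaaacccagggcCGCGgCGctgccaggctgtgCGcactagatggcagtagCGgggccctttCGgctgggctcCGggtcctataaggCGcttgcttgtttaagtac
Neither window holds a GC box, and CG occurs 4 times in the Lrrc4c window and 12 times in that of Lsamp.

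Cell types are those deposited, and their markers were checked before the members were read. In WT mice the mean summed markers of motor neurons (3 genes), oligodendrocytes (4), oligodendrocyte precursors (OPCs, 4), astrocytes (3) and endothelial cells (3) were higher in their own type than in the other cell types. Neuron markers (5) were not, since the Schwann and meningeal nuclei carried them at 3042 to 5695 CPM, beside 3254 to 3599 CPM in neurons, together with oligodendrocyte markers at 4469 to 6516 CPM. The nuclei labelled microglia were mixed as well. Their 4 microglial markers Cx3cr1, Csf1r, Ptprc and P2ry12 summed to 76.1 to 171 CPM in WT mice, a range that overlaps the 35.02 to 82.5 CPM in neurons, and their 5 neuron markers summed to 1867 to 2483 CPM and their 4 oligodendrocyte markers to 2317 to 3288 CPM. Only 1 of 145 WT nuclei and 1 of 78 SOD1G93A nuclei of this label had no UMI of a neuron marker. Levels of neuronal genes under both labels are reported as levels of the labelled nuclei.

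Among the 8 cell types compared in WT mice, both netrin-G genes had their highest mean in motor neurons, with all other neurons taken as a whole. Both ligand genes had theirs in OPCs, each by a step within the spread, while the IgLON genes were spread over several types. Lsamp, the limbic system-associated IgLON, was highest in astrocytes at 25290 ± 3282 CPM (SD, n = 6 mice), the highest level per kb of any member and cell type. In motor neurons and in Schwann and meningeal nuclei another member was above it per kb. For Lsamp, OPCs followed astrocytes at 14304 ± 2427 CPM and neurons at 13648 ± 1757 CPM. Astrocytes were above OPCs in 6 of 6 WT mice, while OPCs were above neurons in only 3 of 6. Ntm (neurotrimin) had the same summit, with 5740 ± 552 CPM in astrocytes against 2436 ± 376 CPM in neurons, again higher in 6 of 6 mice. Its level in motor neurons had the lowest mean among 8 types that had nuclei from each mouse, at 241 ± 297 CPM, within the spread of endothelial cells at 276 ± 121 CPM, which were above it in 4 of 6 WT mice.

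Opcml was highest in OPCs at 3693 ± 691 CPM, above neurons at 2449 ± 353 CPM in 6 of 6 WT mice. Oligodendrocytes carried 1073 ± 290 CPM, motor neurons 617 ± 440 CPM and endothelial cells 217 ± 109 CPM. Oligodendrocytes were above the Schwann and meningeal nuclei, next in order at 1003 ± 466 CPM, in 4 of 6 WT mice, so this step was within the spread. Negr1 was highest in neurons at 2079 ± 280 CPM. Iglon5, a short gene at 23.8 ± 2.24 CPM in neurons, reached 80.2 ± 44.5 CPM in Schwann and meningeal nuclei.

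Among the netrin-Gs, Ntng1 was highest in motor neurons at 595 ± 166 CPM and next in other neurons, taken as a whole, at 410 ± 27.9 CPM. This order was seen in 5 of 6 WT mice, and some neuron sub-types were above motor neurons, as given below. Ntng2 was far more selective. It stood at 201 ± 97.3 CPM in motor neurons, above every astrocyte level (58.4 ± 11.9 CPM), whereas neurons of the other classes held 18.4 ± 2.56 CPM. The ligand gene Lrrc4c was highest in OPCs at 6831 ± 1616 CPM and motor neurons at 6138 ± 1195 CPM, with OPCs above motor neurons in 4 of 6 mice. Lrrc4 varied least, from 116 ± 30.1 CPM in OPCs to 38.5 ± 19.1 CPM in endothelial cells. For Lrrc4, OPCs were above oligodendrocytes (111 ± 32.0 CPM) in 4 of 6 WT mice. Motor neurons followed at 104 ± 14.9 CPM, so these steps were within the spread.

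**Figure D1:**
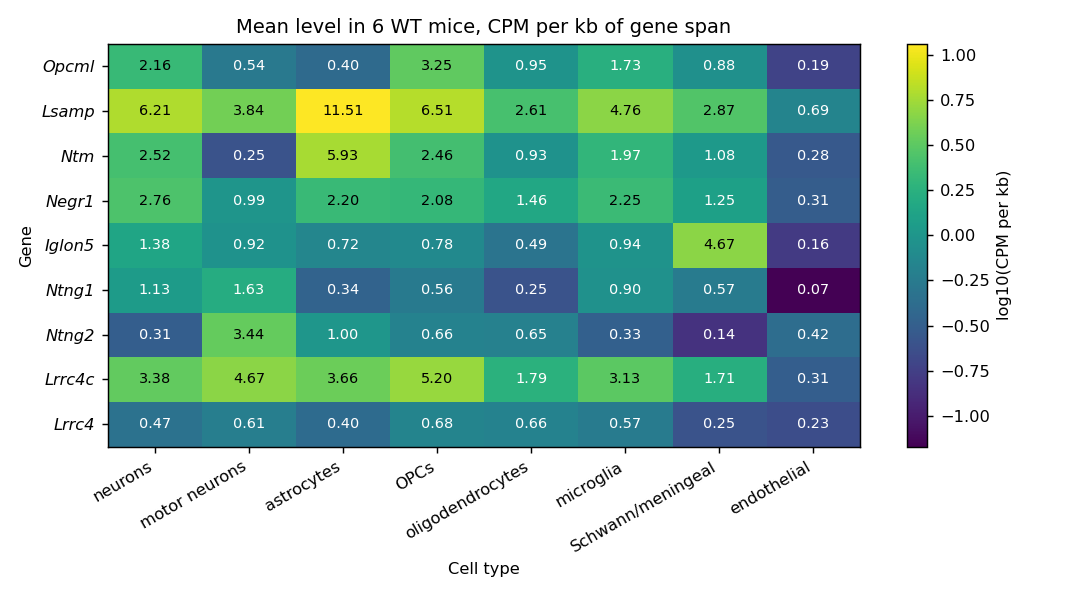
Mean level of each gene in the 6 WT mice, in CPM per kb of gene span, for the 8 cell types to which all 12 mice gave nuclei. Colours follow log10 of the printed value. Lsamp in astrocytes (11.51) is the highest and Ntng1 in endothelial cells (0.07) the lowest.

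Neuronal sub-types separated the netrin-Gs further. Ntng1 was highest in mid excitatory neurons at 1080 ± 216 CPM, above ventral excitatory neurons at 670 ± 62.9 CPM in 6 of 6 WT mice. The means of both sub-types were above that of motor neurons (595 ± 166 CPM), for ventral excitatory neurons within the spread. The lowest level was in dorsal inhibitory neurons at 88.4 ± 23.3 CPM. Ntng2 ran differently, with 34.3 ± 8.29 CPM in ventral excitatory neurons and 5.67 ± 1.68 CPM in dorsal excitatory neurons, all far below motor neurons. Negr1 levels ran from 3174 ± 378 CPM in dorsal excitatory neurons to 1279 ± 170 CPM in ventral excitatory and 1091 ± 213 CPM in ventral inhibitory neurons. Opcml and Lsamp were flatter across the 9 sub-types, at 1706 to 3079 CPM and 11949 to 16592 CPM.

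Genes with the most similar WT pattern were ranked by Pearson r over 16 cell types and neuron sub-types, as a description over points that share libraries. The closest to Opcml were D630045J12Rik (r = 0.98), Arhgap24 (0.96) and Gm48091 (0.95), the last an antisense gene that overlaps the end of Opcml. For Lsamp they included Ctnnd2 (0.99) and Fmn2 (0.97). Ntm was closest to Acer3 (0.93), Abat (0.92) and St6gal2 (0.91). Negr1 ran with Robo2 (0.95), Neto2 (0.95) and Fam124a (0.94), and Iglon5 with Dzank1 (0.98), Gm12709 (0.97) and Lonrf2 (0.96). For Ntng1 the first were Vwc2l (0.93), Pdzrn4 (0.92) and Miat (0.91), and for Ntng2 Afap1 (0.90), Asap3 (0.88) and Exd1 (0.87). Genes close to Lrrc4c included Nlgn1 (0.96) and Kcnma1 (0.96), and Lrrc4 was closest to Kcnj13 (0.95), Gm38134 (0.95) and 4932443L11Rik (0.95). Between members, Lsamp and Lrrc4c were the most alike (r = 0.89) and Iglon5 and Ntng2 the least (r = −0.51). The binding partners gave r = 0.68 for Ntng1 with Lrrc4c and 0.40 for Ntng2 with Lrrc4.

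Genotype was then compared for each member within each cell type. At a false discovery rate (FDR) of 0.1 over all genes of a type, 5 of the 75 combinations of member and cell type tested were past the threshold, and all 5 were lower in SOD1G93A mice: Ntng1, Ntng2 and Lrrc4c in motor neurons, Ntng1 in nuclei labelled microglia and Lsamp in astrocytes. Over all genes, 392 of 68984 tests in the 10 cell types were past it (0.568%), and nothing is read from the comparison because this contrast chose the members. The 7 other cell types gave 0 of 49 member combinations, with 0.0309% of all gene tests past the threshold there. Within oligodendrocytes, Opcml was past the threshold in sub-cluster 0 and in none of the other 4 sub-clusters. By another tool, edgeR, 3 of the 75 combinations were past the threshold, and by DESeq2 4.

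**Figure D2:**
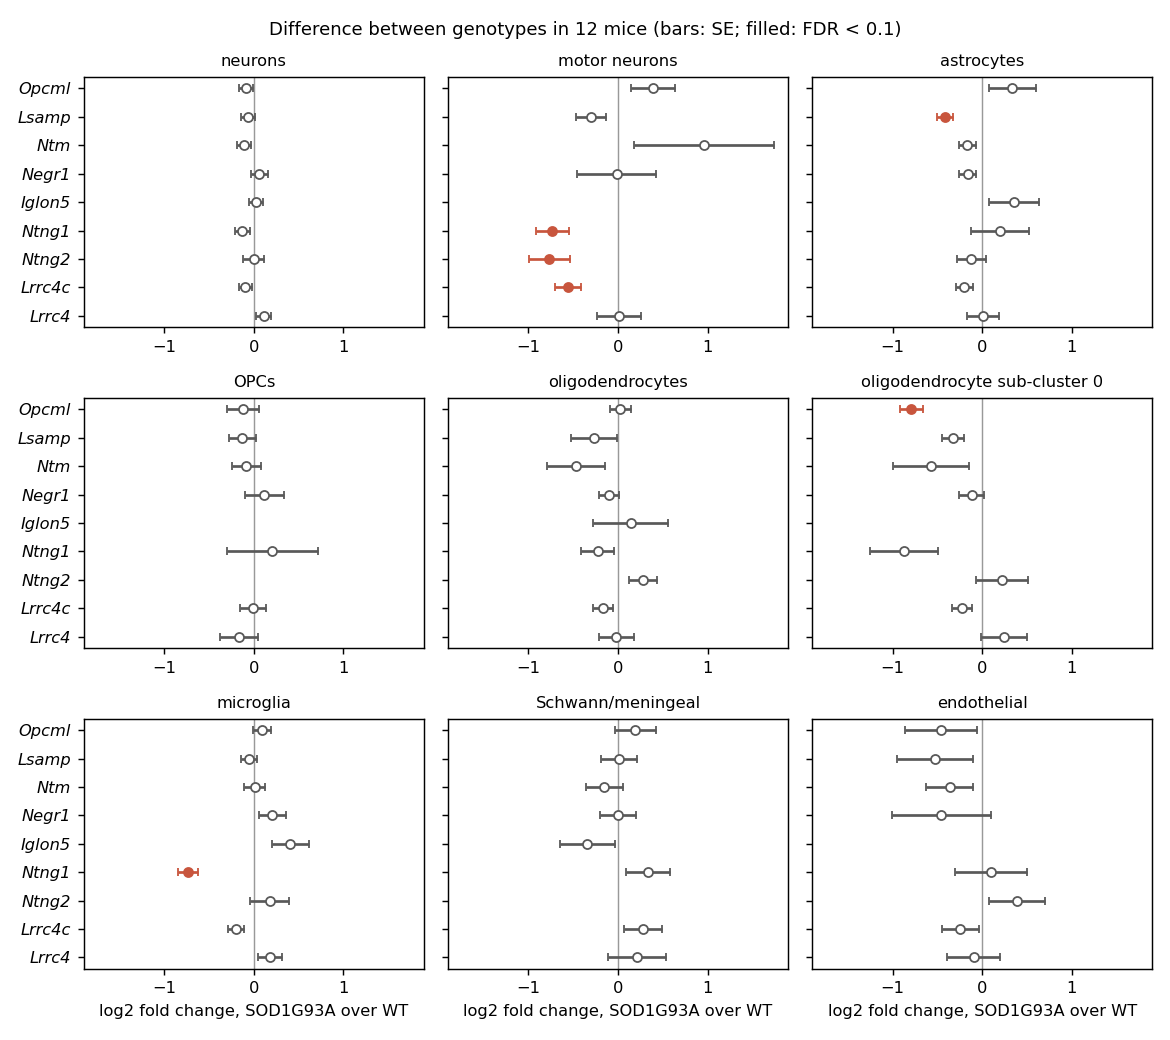
Log2 fold change of SOD1G93A over WT for each gene in 8 cell types and in oligodendrocyte sub-cluster 0, with its SE as a bar. Filled points are past an FDR of 0.1 and all lie below 0. Genes without a point were too low to test in that type.

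In motor neurons Ntng1, Ntng2 and Lrrc4c each had a lower estimate in SOD1G93A mice, and whether they moved together was not tested. The fit found 84 of 5118 genes lower past the threshold (1.64%), among them 3 of the 8 members tested. This contrast was part of the choice of members, and nothing is read from that share. Ntng1 was at 555, 734 and 662 CPM in the WT females of pools A, B and C and at 644, 694 and 279 CPM in the WT males. The SOD1G93A females had 351, 456 and 305 CPM and the SOD1G93A males 298, 387 and 296 CPM. The WT male of pool C was below all SOD1G93A mice, and the other 5 WT mice were above all of them. The log2 fold change was −0.73 ± 0.18 (SE), and the SOD1G93A mouse was the lower in 5 of 6 pairs matched for sex and pool.

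Ntng2 was at 385, 176 and 212 CPM in WT females and 130, 189 and 114 CPM in WT males, against 135, 109 and 33.9 CPM in SOD1G93A females and 118, 137 and 73.3 CPM in SOD1G93A males. The groups overlapped, with 3 SOD1G93A mice below the lowest WT mouse, and all 6 pairs were lower. The log2 fold change was −0.77 ± 0.23. It rests on 403 WT and 152 SOD1G93A UMIs, and the call was lost in 16 of 20 alternative analyses, among them both other tools and leaving out any 1 mouse other than the WT female of pool B, the WT male of pool A or the SOD1G93A male of pool B (−0.87 to −0.61 over the 16).

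Lrrc4c, the dendritic partner of netrin-G1, was at 5407, 6076 and 6222 CPM in WT females and 4492, 6566 and 8063 CPM in WT males. SOD1G93A females had 4425, 5841 and 3664 CPM and males 3610, 3706 and 3393 CPM. Only the SOD1G93A female of pool B reached the WT range, and all 6 pairs were lower, with a log2 fold change of −0.56 ± 0.15. The call was lost in 10 of 20 alternatives for Lrrc4c and in 7 of 20 for Ntng1, while all values stayed below 0. For Ntng1 these included leaving out the WT female of pool C, the WT male of pool B, the SOD1G93A female of pool A or B, or the SOD1G93A male of pool A (−0.77 to −0.65). For Lrrc4c they included the WT mice of either sex of pool C, the WT female of pool A, the WT male of pool B, the SOD1G93A females of pools A and C and the SOD1G93A male of pool C (−0.63 to −0.48). These motor neurons number 44 in WT mice and 23 in SOD1G93A mice, with 4 to 11 and 1 to 6 nuclei per mouse, so single nuclei carry much of a mouse's value. The largest share of a mouse's Ntng1 UMIs from 1 nucleus ran up to 60.7% in WT mice and 100% in the SOD1G93A female with a single nucleus.

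Depth per nucleus had a median of 43895 UMIs in WT and 60146 in SOD1G93A motor neuron nuclei. UMIs summed per mouse ran from 168555 to 651446 in WT and from 27658 to 415305 in SOD1G93A mice. The part of depth in the members' values was not tested. Ntng1 was seen in 42 of 44 WT and 18 of 23 SOD1G93A nuclei, and Ntng2 in 38 of 44 and 20 of 23. In endothelial cells, with medians of 6812 and 7500 UMIs, Ntng1 was seen in 34 of 256 and 37 of 245 nuclei. Summed oligodendrocyte markers in the motor neuron nuclei overlapped between genotypes, at 52.6 to 745 CPM in WT and 85.8 to 575 CPM in SOD1G93A mice. The 3 motor neuron markers summed to 1097 to 1649 CPM in WT and 680 to 2422 CPM in SOD1G93A mice, and each of the 3 was detected. The summed OPC markers were 807 to 1255 CPM in the SOD1G93A motor neuron nuclei and 1063 to 1646 CPM in WT, with overlap, and nearly all of this sum was Tnr (means of 1036 and 1388 CPM). Vcan had 14.5 and 12.0 CPM, and Pdgfra and Cspg4 had 4 UMIs or fewer in a genotype. The part of Tnr in the Ntng1 and Lrrc4c values was not tested.

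No other member was past the threshold in motor neurons. Opcml in motor neurons was at 1430, 452 and 717 CPM in WT females and 606, 238 and 261 CPM in WT males, and at 1089, 493 and 170 CPM in SOD1G93A females and 771, 705 and 917 CPM in SOD1G93A males. The ranges overlapped almost wholly, with a log2 fold change of 0.39 ± 0.25. Values were −0.30 ± 0.17 for Lsamp, 0.96 ± 0.79 for Ntm, −0.02 ± 0.44 for Negr1 and 0.01 ± 0.25 for Lrrc4, the netrin-G2 partner. Iglon5, with 36 WT and 28 SOD1G93A UMIs, was too low to test.

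A pair of lists of other adhesion genes were read in the same way. Of 16 synaptic organisers tested in motor neurons (neuroligins, LAR-type phosphatases, leucine-rich repeat proteins and others), 1 fell and 0 rose, with a median log2 fold change of −0.19. It was Lrrtm3, a postsynaptic adhesion protein, at −0.65 ± 0.17. Of 12 contactins and contactin-associated proteins, 3 fell and 0 rose, with a median of −0.37: Cntnap5c at −1.45 ± 0.33, Cntnap5b at −0.90 ± 0.21 and Cntnap2, which organises the juxtaparanode of myelinated axons, at −0.51 ± 0.14. Of all 5118 genes 1.64% were lower past the threshold, and their median was 0.00. In the 9 other cell types 0 genes of either list were past the threshold by limma, although within microglia sub-cluster 0 the organiser Lrrtm4 was lower at −0.40 ± 0.09, and edgeR called 2 in all types together instead of 4.

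The genotype difference in motor neurons was also split by gene length. Of 521 tested genes spanning at least 300 kb, 37 were lower and 40 were past the threshold in either direction (7.68%), with a median log2 fold change of −0.19. Of 4549 shorter genes 47 were lower and 116 were past it (2.55%), with a median of 0.02. Of the members, Ntng1 and Lrrc4c belong to the long class, whose 6 members had a median of −0.16, whereas Ntng2 is short. In astrocytes 29 of 549 long genes were past the threshold (5.28%) and 182 of 8717 others (2.09%), with medians of −0.04 and 0.02. In oligodendrocyte sub-cluster 0 all 4 genes that were lower, Opcml among them, spanned at least 300 kb, 4 of 444 long genes against 0 of 3993 others, with medians of −0.11 and 0.00. The part of gene length in the members' values was not tested.

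**Figure D3:**
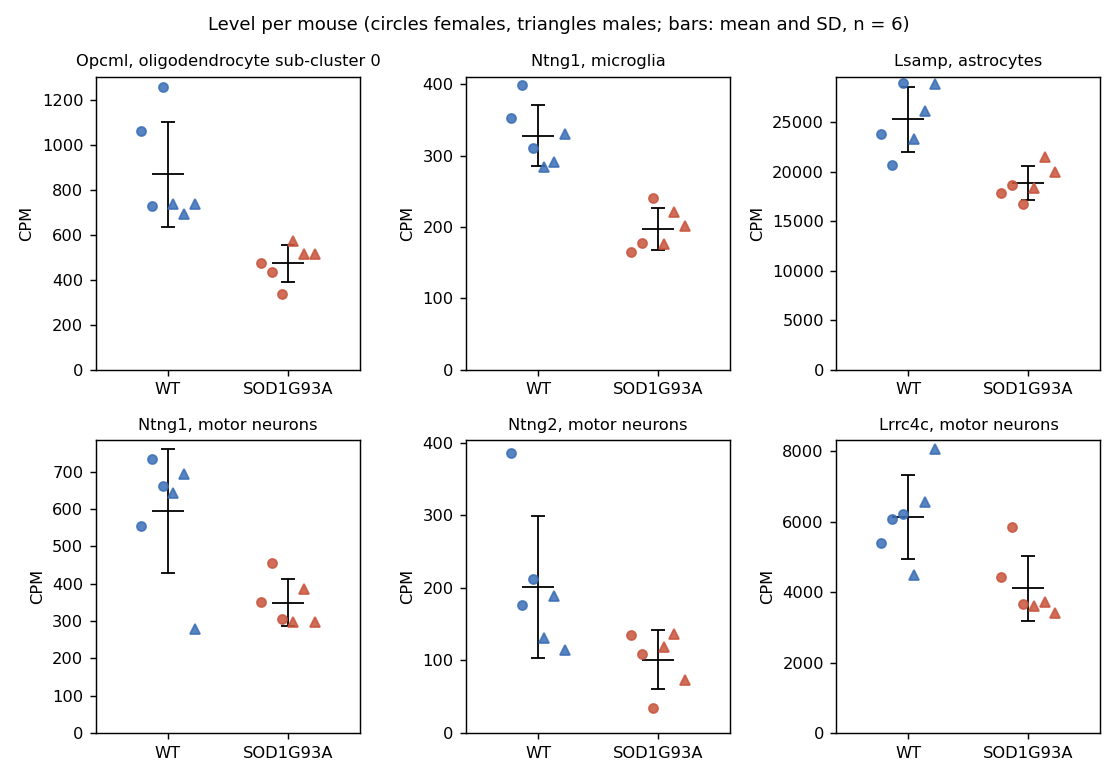
Level in CPM in each mouse for the 6 combinations of gene and cell type past an FDR of 0.1 (circles females, triangles males, horizontal line and bar the mean and SD of 6 mice). The genotypes do not overlap for Opcml in oligodendrocyte sub-cluster 0 or for Ntng1 in nuclei labelled microglia, and they overlap in the other 4 panels. Both genes were chosen because they were lower, and the share of all genes without overlap was not counted, so nothing is read from it.

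Ntng1 in nuclei labelled microglia was lower in SOD1G93A mice without overlap, and nothing is read from that, because Ntng1 was chosen for being lower. The WT females had 352, 398 and 311 CPM and the WT males 284, 292 and 330 CPM. The SOD1G93A females had 165, 178 and 240 CPM and the SOD1G93A males 176, 221 and 201 CPM. Every SOD1G93A mouse was below the lowest WT mouse, and the log2 fold change was −0.74 ± 0.11 on 3516 WT and 932 SOD1G93A UMIs. In this cell type 2 of 9218 genes were lower past the threshold (0.0217%), 1 of which was Ntng1. The pools gave log2 ratios of −0.89, −0.78 and −0.54. A mouse had 6 to 41 such nuclei in WT and 5 to 28 in SOD1G93A, and 1 nucleus held up to 47.6% of the Ntng1 UMIs of a WT mouse and up to 97.4% of those of a SOD1G93A mouse. Median depth was 50964 UMIs in WT and 39032 in SOD1G93A nuclei of this label, beside 12940.5 and 12748.5 in neurons. Ntng1 was seen in 116 of 145 WT and 56 of 78 SOD1G93A nuclei. The part of depth in the Ntng1 value was not tested.

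The neuron markers in these nuclei overlapped between genotypes, at 1867 to 2483 CPM in WT and 1972 to 2659 CPM in SOD1G93A mice, and all 5 were detected in both. In neurons themselves Ntng1 was at 441, 367 and 415 CPM in WT females and 426, 426 and 387 CPM in WT males, and at 307, 391 and 443 CPM in SOD1G93A females and 333, 390 and 401 CPM in SOD1G93A males, a log2 fold change of −0.13 ± 0.09 with overlap. Opcml, another gene of high neuronal level, was at 2154, 1693 and 2136 CPM in the microglia-labelled nuclei of WT females, at 1793, 2021 and 1989 CPM in WT males, at 1820, 1800 and 2469 CPM in SOD1G93A females and at 1805, 2696 and 2065 CPM in SOD1G93A males. Its log2 fold change there was 0.09 ± 0.10. In the 210 of 223 microglia-labelled nuclei whose share of neuron-marker UMIs was under that of the median neuron, the neuron markers were still at means of 2032 CPM in WT and 2274 CPM in SOD1G93A mice, and the log2 fold change of Ntng1 was −0.70. The part of RNA from other cells in the Ntng1 value was not tested.

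By sub-cluster, Ntng1 was at 295 ± 66.0 CPM in WT and 208 ± 49.9 CPM in SOD1G93A mice in microglia sub-cluster 0 (log2 fold change −0.55 ± 0.15) and at 392 ± 190 and 168 ± 101 CPM in sub-cluster 1 (−1.14 ± 0.66). The ranges overlapped in both and neither value was past the threshold. Sub-cluster 0 made up 54.7% ± 12.2 of the microglia-labelled nuclei of a WT mouse and 71.9% ± 16.5 of those of a SOD1G93A mouse, and sub-cluster 1 39.5% ± 16.2 and 25.0% ± 14.4. The part of these shares in the Ntng1 value was not tested. Sub-cluster 1 had nuclei of 5 SOD1G93A mice, and sub-cluster 2, with 15 nuclei, could not be fitted.

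Opcml was lower in oligodendrocyte sub-cluster 0, while its level over all oligodendrocytes overlapped between genotypes. In sub-cluster 0 the WT females had 1062, 730 and 1256 CPM and the WT males 738, 692 and 738 CPM, against 474, 433 and 335 CPM in SOD1G93A females and 573, 513 and 513 CPM in SOD1G93A males. The lowest WT mouse was above the highest SOD1G93A mouse, all 6 pairs were lower, and the log2 fold change was −0.79 ± 0.12 on 1339 and 713 UMIs. Nothing is read from the separation, because Opcml was chosen for being lower. Of 4477 genes tested in sub-cluster 0, 4 were lower past the threshold (0.0893%). The share of nuclei with an Opcml UMI was 70.9% to 85.4% per WT mouse and 65.8% to 76.8% per SOD1G93A mouse, at similar depth (medians of 4587 and 4306 UMIs).

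Summed OPC markers in the same nuclei were 51.2 to 329 CPM in WT and 31.0 to 100.1 CPM in SOD1G93A mice, overlapping, with all 4 markers detected. Oligodendrocyte markers were 6886 to 9647 and 7879 to 8776 CPM. The part of OPC RNA in the Opcml value was not tested. The sexes gave an interaction (male minus female genotype effect) of 0.72 ± 0.25 in sub-cluster 0 (limma, FDR = 0.998). Among the other members in this sub-cluster, Ntng1 had −0.87 ± 0.38 on 106 and 40 UMIs, Lsamp −0.33 ± 0.12, Ntm −0.57 ± 0.42, Lrrc4c −0.23 ± 0.11 and Negr1 −0.12 ± 0.14. Of the 8 members tested there, Opcml included, 6 were below 0, beside 51.7% of all genes tested. Nothing is read from this count, because genotype chose the members. The 2 members that span under 300 kb had a median of 0.23. No member but Opcml was past the threshold.

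Sub-cluster 4, of 53 nuclei that carried OPC markers at 2877 to 9208 CPM in WT mice beside those of oligodendrocytes, held 8535 ± 2915 CPM in WT and 13212 ± 9844 CPM in SOD1G93A mice. A mouse had 2 to 10 of these nuclei in WT and 1 to 8 in SOD1G93A, where OPC markers ran from 0 to 17035.5 CPM. Sub-cluster 1 held 549 ± 109 and 415 ± 126 CPM (−0.43 ± 0.12), sub-cluster 2 1306 ± 234 and 1266 ± 505 CPM (−0.14 ± 0.19), and sub-cluster 3 751 ± 351 and 759 ± 477 CPM (0.05 ± 0.43). Summed over all oligodendrocytes Opcml was at 1323, 879 and 1511 CPM in WT females and 791, 849 and 1085 CPM in WT males, and at 959, 1057 and 1787 CPM in SOD1G93A females and 808, 930 and 1036 CPM in SOD1G93A males. The groups overlapped, with the SOD1G93A female of pool C above every WT mouse, and the log2 fold change was 0.03 ± 0.11.

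**Figure D4:**
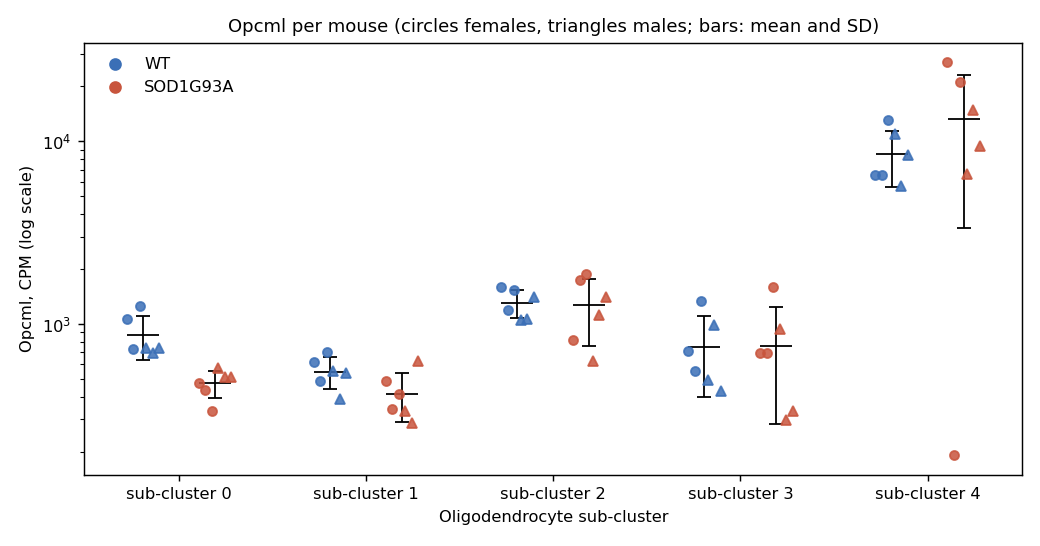
Opcml in each mouse in the 5 oligodendrocyte sub-clusters, in CPM on a log scale (circles females, triangles males, line and bar the mean and SD). The genotypes separate in sub-cluster 0 alone, and sub-cluster 4 lies highest, apart from 1 SOD1G93A mouse with a single nucleus at 191 CPM. The highest SOD1G93A mouse there, at 27075 CPM, also had a single nucleus.

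In the precursors the genotypes overlapped. Opcml in OPCs was at 3840, 2549 and 4052 CPM in WT females, 3783, 3346 and 4589 CPM in WT males, 2494, 3711 and 2093 CPM in SOD1G93A females and 3158, 4936 and 3947 CPM in SOD1G93A males, with a log2 fold change of −0.12 ± 0.18. Ntng1 in OPCs was at 335, 53.3 and 176 CPM in WT females, 162, 356 and 142 CPM in WT males, 408, 273 and 0 CPM in SOD1G93A females and 183, 231 and 44.5 CPM in SOD1G93A males (0.21 ± 0.51), and the 2 nuclei of the SOD1G93A mouse at the low end held no UMI. In oligodendrocytes Ntng1 was at 111, 83.6 and 125 CPM in WT females, 48.9, 88.8 and 94.3 CPM in WT males, 38.1, 93.7 and 64.4 CPM in SOD1G93A females and 76.3, 80.2 and 96.1 CPM in SOD1G93A males (−0.23 ± 0.19), again with overlap.

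Lsamp, at its highest in astrocytes, was lower there in SOD1G93A mice. WT females had 23811, 20706 and 28922 CPM and WT males 23312, 26111 and 28878 CPM, against 17813, 18688 and 16746 CPM in SOD1G93A females and 18323, 21512 and 19982 CPM in SOD1G93A males. Only the SOD1G93A male of pool B exceeded the lowest WT mouse, all 6 pairs were lower, and the log2 fold change was −0.42 ± 0.09. Here 85 of 9347 genes were lower past the threshold (0.909%). The call was lost without the WT male of pool C and without the SOD1G93A male of pool A.

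The astrocyte sub-clusters differed both in Lsamp and in their shares. Sub-cluster 1 had the highest level, 36891 ± 2706 CPM in WT mice, and made up 36.9% ± 6.30 of the astrocyte nuclei of a WT mouse but 14.7% ± 6.00 of those of a SOD1G93A mouse (SD, n = 6), without overlap (26.9% to 42.6% against 4.81% to 21.6%). Sub-cluster 3 had the lowest level, 15370 ± 2574 CPM, with shares of 9.35% ± 1.87 and 18.9% ± 6.41. Within the sub-clusters the log2 fold changes were −0.12 ± 0.06, −0.17 ± 0.07, −0.08 ± 0.10, −0.06 ± 0.12 and −0.04 ± 0.11 for sub-clusters 0 to 4, and none was past the threshold. With every mouse given the same mix of sub-clusters, an analysis added after the data had been seen, the log2 ratio went from −0.34 to −0.11. On the unscaled CPM used there, 2 instead of 6 SOD1G93A mice were below the lowest WT mouse. The authors defined the sub-clusters from expression of the same nuclei, so a changed mix and a changed level cannot be told apart. Sub-clusters 2 and 4 had as few as 3 nuclei of a mouse. The part of the shares in the Lsamp value was not tested.

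**Figure D5:**
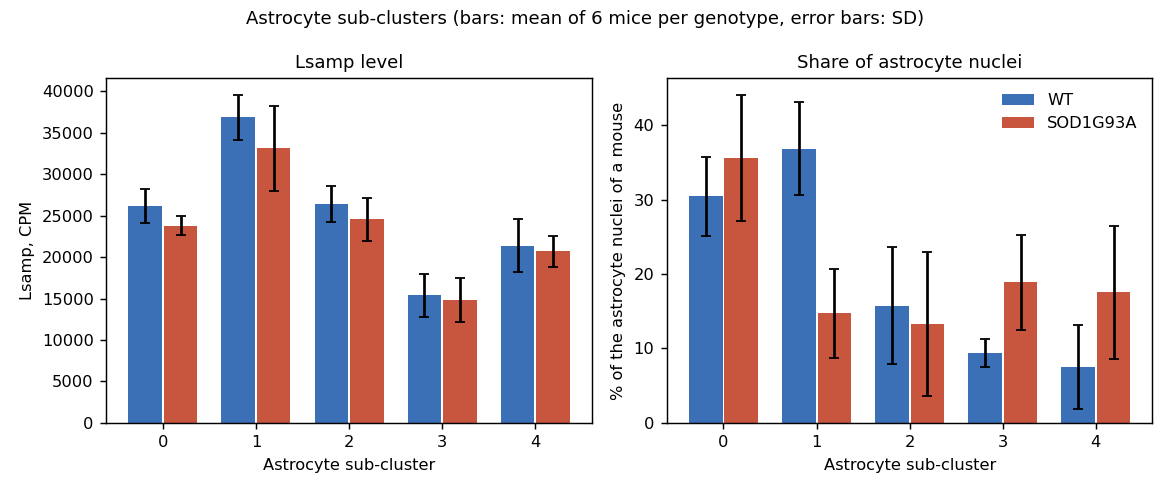
Lsamp level in CPM (left) and share of the astrocyte nuclei of a mouse in percent (right) for the 5 astrocyte sub-clusters. Bars are means of 6 mice per genotype and error bars SDs. Sub-cluster 1 has the highest Lsamp level in both genotypes and a smaller share in SOD1G93A mice.

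Ntm, the other astrocyte-rich IgLON, was at 5740 ± 552 CPM in WT and 5100 ± 472 CPM in SOD1G93A astrocytes (−0.17 ± 0.10). Lrrc4c there had −0.20 ± 0.09, Negr1 −0.16 ± 0.10 and Opcml 0.34 ± 0.26. Astrocyte markers (Aqp4, Aldh1l1 and Gfap) summed to 867 to 1122 CPM in WT and 1672 to 2225 CPM in SOD1G93A mice, without overlap, through Aqp4 (means of 660 and 1218 CPM) and Gfap (251 and 577 CPM), while Aldh1l1 had 82.5 and 77.3 CPM. Oligodendrocyte markers in the same nuclei summed to 1024 to 1564 and 1457 to 2792 CPM. Their part in the Lsamp value was not tested.

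Neurons as a whole showed no member past the threshold, nor did any of the 9 neuron sub-types, where 0 of 77 member combinations and 0.0252% of all gene tests were past it. At an unadjusted p under 0.05 there were 10 member combinations (13.0%), beside 4.54% of all gene tests, and nothing is read from this either, since genotype chose the members. EdgeR and DESeq2 also gave 0 there. Opcml in neurons was at 2782, 2191 and 2912 CPM in WT females and 2021, 2250 and 2541 CPM in WT males, and at 2104, 2271 and 2540 CPM in SOD1G93A females and 2049, 2480 and 2317 CPM in SOD1G93A males, a log2 fold change of −0.09 ± 0.08. Its estimate was below 0 in all 9 sub-types, from −0.28 ± 0.08 in mid inhibitory neurons to −0.03 ± 0.07 in ventral excitatory neurons. Ntng1 estimates ran from −0.91 ± 0.32 in ventral mixed neurons to 0.39 ± 0.18 in mid inhibitory neurons, with −0.26 ± 0.07 in dorsal excitatory neurons.

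Sex was tested with the members' choice playing no part. Of 75 combinations in the 10 cell types, limma called 0 at the threshold, 5 had an unadjusted p under 0.05 (6.67%, against 5.56% of all gene tests), and edgeR and DESeq2 called 0 as well, while 0.159% of all 68984 gene tests were past the threshold. Opcml in oligodendrocytes had the smallest p. Females held 1253 ± 353 CPM and males 917 ± 122 CPM, females were higher in 6 of 6 pairs matched for genotype and pool, and the log2 difference was 0.41 ± 0.11 (limma, unadjusted p = 0.0030, FDR = 0.912). In OPCs, Lrrc4c was lower in females, at 5890 ± 885 against 7624 ± 1065 CPM (−0.37 ± 0.15, FDR = 0.371), and so was Lsamp, at 12051 ± 2526 against 15235 ± 1297 CPM (−0.34 ± 0.15, FDR = 0.437), in 6 of 6 pairs each. Lrrc4 in astrocytes had −0.48 ± 0.18 (FDR = 0.755) and Iglon5 in neurons −0.20 ± 0.08 (FDR = 1.0).

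The interaction of sex and genotype gave 0 calls among the 75 combinations by limma, edgeR and DESeq2, with 2 at an unadjusted p under 0.05 (2.67%, against 3.11% of all gene tests), and 0.0058% of all gene tests were past the threshold. Opcml in motor neurons came first. Its means were 866 CPM in WT and 584 CPM in SOD1G93A females, and 368 CPM in WT and 798 CPM in SOD1G93A males, a difference of genotype effects of 1.601 ± 0.49 (limma, unadjusted p = 0.0056, FDR = 0.714). Ntng1 in endothelial cells, on a few UMIs per mouse, had −1.70 ± 0.81 (FDR = 1.0).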

How the data were processed

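Lumbar spinal cord nuclei of 12 mice in 3 pools were analysed. The deposited counts are UMIs per gene and nucleus, which the authors made with Cell Ranger 3.1 and STAR 2.5.1b on an mm10 pre-mRNA reference, assigning nuclei to mice by hashtag and removing nuclei under 200 genes, over 10% mitochondrial UMIs or with several hashtags. Doublets within 1 mouse are not marked. Cell types and sub-clusters are those deposited, and the integrated values were not used.

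UMIs were summed per mouse and cell type. Genes were filtered with filterByExpr (minimum count 10), scaled with TMMwsp factors and fitted with limma-voom (limma 3.58.1, edgeR 4.0.16, R 4.3.3) with a term per sex and genotype group and per pool, as in the study's methods. Robust eBayes was added, with Benjamini-Hochberg adjustment over all genes of a type. The threshold was an FDR of 0.1. Fold changes are SOD1G93A over WT, and CPM use the scaled library sizes. DESeq2 1.42.0 was an alternative. Scripts were tested on simulated data. Gene spans are those of GENCODE vM21, matched for 97.9% of genes.

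The members and lists were chosen with earlier results of these data known. Named are all 9 members, with values per mouse for those past the threshold and for Opcml and Ntng1 in 5 cell types, the genes of both other lists past the threshold for genotype in 1 of the 10 cell types, and the 3 genes most like each member among those with at least 10 CPM in 1 of 16 cell types and sub-types, except that some of these are not reported here. Motor neurons (1 to 11 nuclei and 27658 to 651446 UMIs per mouse) and the still thinner fibroblasts (0 to 11 nuclei per mouse) and ependymal cells (0 to 21) limit precision. Lrrtm4 in a microglia sub-cluster was named after its value was seen.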

Additional observations from a re-analysis of the deposited data

Results flagged for a closer look

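Dixon's ratio was computed for 40 groups of 5 or 6 mice, the WT and SOD1G93A mice of 20 combinations of member and cell type or sub-cluster, and 2 had a mouse far from the others. Chance flags about 1 in 20 such groups. Ntng2 in motor neurons of the WT female of pool A was at 385 CPM, against 114 to 212 CPM in the other 5 WT mice. Opcml in oligodendrocytes of the SOD1G93A female of pool C was at 1787 CPM, against 808 to 1057 CPM in the other 5 SOD1G93A mice.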

How the results depend on the processing

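Opcml in oligodendrocyte sub-cluster 0 (log2 fold change −0.92 to −0.70 over 20 alternatives) and Ntng1 in microglia-labelled nuclei (−0.83 to −0.65 over 21) stayed past the threshold in every alternative run. Both genes were chosen because they were lower in these same mice, so their staying past it supports nothing. Lsamp in astrocytes (−0.49 to −0.36) lost the call in 2 of 20, both leaving out 1 mouse. The motor neuron calls depended on the analysis more often, all with values below 0. The count of members past the threshold for genotype in the 10 cell types, 5 in the main analysis, was 3 with edgeR, 2 with a minimum count of 30 and 2 without the pool term. It was 2 to 5 when 1 mouse was left out, and its highest value over the 22 alternatives was 6. In motor neurons 157 of 5118 genes were past the threshold in the main analysis and 72 with edgeR. There were 51 of 2042 with a minimum count of 30 and 40 of 5118 without the pool term. In oligodendrocyte and microglia sub-clusters the count of members was 1, with 4 when no filter was used and 1 to 3 when 1 mouse was left out. Without a filter 30 of 18325 genes were past the threshold in oligodendrocyte sub-cluster 0, against 8 of 4477 in the main analysis. In neuron sub-types and astrocyte sub-clusters the count of members was 0, with 7 without a filter and 0 to 1 when 1 mouse was left out. Nothing is read from these counts, because genotype chose the members. For sex the count was 0 and 0 to 1 with 1 mouse left out, and for the interaction 0, with 1 without a filter and 0 to 1 with 1 mouse left out. The other adhesion genes gave 4 calls in the main analysis and 2 with edgeR. Opcml in all oligodendrocytes (−0.068 to 0.11 with 1 mouse left out) changed sign to −0.068 without the WT female of pool B, −0.045 without the SOD1G93A female of pool C and −0.042 without the SOD1G93A male of pool B. The cell type with the highest level was unchanged for 8 of 9 members on unscaled CPM and on the mean over nuclei, Lrrc4 then being highest in oligodendrocytes. The pool, which holds 1 mouse of each sex and genotype, was a term of the main model. The cause of the lost calls was not tested. Few UMIs limit Ntng2 and Iglon5 in motor neurons.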
